A study of Mus musculus with 16 samples.

Results

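Ear skin under imiquimod was followed from day 4 to day 7 in mice that received saline vehicle and no LPC. These are 8 of the 16 libraries of the series, chosen by their sample titles: 4 mice killed on day 4 and 4 other mice killed on day 7. All animals were BALB/c mice aged 8 weeks, and imiquimod was applied to the ear in every group, the LPC groups included. The vehicle was 10 µl of normal saline given into the dermis once a day, planned for 6 days. In the other 8 libraries the injected 10 µl held 10 mM LPC instead. Mice killed on day 4 could not have had the whole series of injections. No skin without imiquimod was analysed here, so the comparison shows how an ongoing lesion differed between 2 days and not how it arose. RNA-seq measured whole lesions, and each library came from a separate mouse.

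Imiquimod activates Toll-like receptor 7 and is used in mice to raise psoriasis-like skin inflammation. In this model, dendritic cells and innate-like T cells release IL-23, IL-17 and IL-22, and keratinocytes answer by dividing faster, changing their keratins, and making IL-36 cytokines, chemokines and antimicrobial proteins. Keratinocytes leaving the basal layer normally switch from Krt5 and Krt14 to Krt1 and Krt10 and then to loricrin, filaggrin and the other proteins of the cornified envelope. The ear also holds hair follicles, cartilage, fat and striated muscle, all of which contribute RNA to a bulk sample.

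The vehicle libraries held 18704197 to 20058172 expected counts. Levels are given as CPM, counts scaled to a common library size, adjusted by TMM, in the order of the mouse numbers 1 to 4, and ± after a log2 fold change is its standard error in the edgeR model. Keratinocyte markers were high in all 8 libraries: Krt14 ran from 5554 to 9432 CPM on day 4 and from 5719 to 17520 CPM on day 7, and Trp63, a basal keratinocyte regulator, from 151 to 284 CPM. Among the 15782 genes tested, edgeR's quasi-likelihood test called none between the days at a Benjamini-Hochberg adjusted p below 0.05, which is 0% called, and the lowest adjusted p was 0.16. At an unadjusted p below 0.05 there were 2050 genes (13.0%), of which 1155 were higher on day 7 (7.32%) and 895 lower (5.67%). The 4 values of one day lay wholly above or below the 4 of the other for 980 genes (6.21%), 545 of them higher on day 7 (3.45%) and 435 lower (2.76%). DESeq2 called 238 genes, 132 higher and 106 lower, and limma-voom with sample quality weights called 2086, 1152 higher and 934 lower.

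The number of called genes moved with single mice. Day 7 mouse 4 and day 4 mouse 3 stood apart, with sample weights of 0.43 and 0.58, where day 7 mice 1 and 3 had 4.24 and 2.72. The mean log2 CPM of 20 neutrophil markers was 1.62 in day 4 mouse 3, against 4.34 to 4.55 in the other day 4 mice, and 2.37 in day 7 mouse 4, against 3.75 to 4.61. Without day 7 mouse 4, edgeR called 205 genes (155 higher, 50 lower), and 101 of them were also called by DESeq2 with all libraries. Without both mice, a choice made after seeing the data, it called 4: Dsg1b, a desmosomal cadherin of upper epidermis, Rfx2, a transcription factor of ciliated cells, and Fam57a were higher on day 7, and Cd200, a surface protein that restrains myeloid cells, was lower. Because no gene passed in edgeR with all libraries, no member of the lists below is called changed in that fit. DESeq2 and limma-voom did call list members. They called 6 and 10 of 30 hair shaft genes lower, and 2 and 25 of 35 cell cycle genes higher. Of 27 collagen and matrix genes 4 and 17 were called higher, and of 29 type I interferon genes none in either. Over all genes DESeq2 called 0.871% higher and 0.699% lower. Over 15782 genes limma-voom called 1152 higher and 934 lower. Each list is described by its members at an unadjusted p below 0.05 and by those whose days do not overlap. Both counts are to be read beside the shares for all genes: 7.32% higher and 5.67% lower at that p, and 3.45% and 2.76% without overlap. Small counts, such as 2 of 20 neutrophil genes, lie near those shares. Members of a list were measured in the same mice, so a large count is not that many independent observations.

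Cd200 stood at 45.8, 45.0, 45.2 and 46.9 CPM on day 4 and at 23.0, 25.2, 26.9 and 36.7 CPM on day 7. The day 4 mice were within 2 CPM of one another, all day 7 mice were lower, and mouse 4 was the nearest to day 4. It had a log2 fold change of -0.71 ± 0.14 (edgeR adjusted p 0.16 over all genes). Fam57a had 81.0, 61.0, 56.3 and 61.7 CPM on day 4 against 169, 125, 179 and 81.5 CPM on day 7, and Rfx2 had 19.0, 23.6, 29.8 and 15.6 CPM against 62.3, 63.2, 45.5 and 31.2 CPM. For both genes mouse 4 was again the lowest of day 7, and the days did not overlap.

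**Figure D1:**
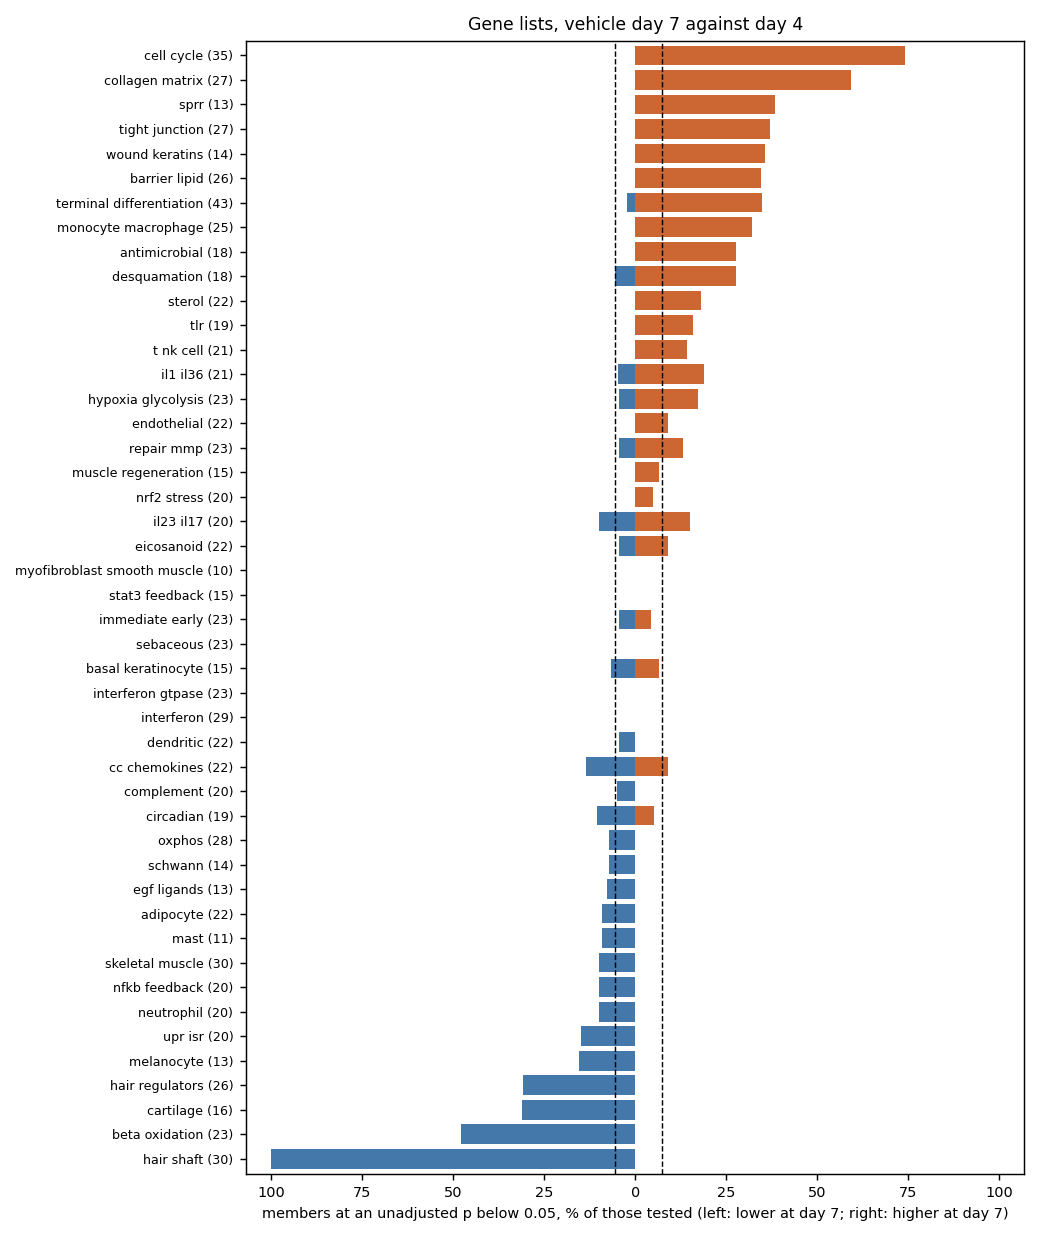
Share of each gene list's tested members (number in parentheses) at an unadjusted p below 0.05, edgeR quasi-likelihood test, vehicle day 7 against day 4; bars to the right are members higher on day 7 and bars to the left members lower, and dashed lines mark the shares over all genes tested (7.32% and 5.67%). The cell cycle list has the longest bar to the right and the hair shaft list the longest to the left. Not drawn are the smallest lists: neutrophil-attracting chemokines (9 tested), red cell transcripts (8) and B and plasma cell markers (6).

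Hair follicle genes were lower on day 7. The hair shaft list holds the hard keratins and keratin-associated proteins that fill the growing hair, with the keratins of its inner root sheath. All 30 tested members were below 0, with a median log2 fold change of -3.49 against 0.004 over all genes, and all 30 had an unadjusted p below 0.05 (5.67% of all genes were lower). The days did not overlap for 4 of them (Tchhl1, Krt27, Krt28 and Krtap4-1; 2.76% of all genes). In these bulk samples fewer follicle cells and less of these RNAs per cell cannot be told apart.

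Krt35, a hair cortex keratin, stood at 150, 384, 156 and 23.2 CPM on day 4 and at 4.22, 18.9, 0.264 and 26.7 CPM on day 7. Day 4 mouse 4 was low and day 7 mouse 3 lowest, so the days overlapped at 23.2 and 26.7 CPM. Day 7 differed from day 4 by a log2 fold change of -3.83 ± 1.26 (edgeR adjusted p 0.25). Krt71, a keratin of the inner root sheath, had 126, 1159, 192 and 35.4 CPM on day 4 against 16.6, 36.1, 0.158 and 25.6 CPM on day 7, a difference of -4.27 ± 1.44 on the log2 scale (edgeR adjusted p 0.25). Here day 4 mouse 2 was far above the rest and day 7 mouse 2 just passed the lowest day 4 value. Krt84, another hair keratin, differed by -3.20 ± 0.99, Krt28 of the inner root sheath by -4.08 ± 1.33, Padi3, which citrullinates trichohyalin, by -3.46 ± 1.05, and Tchhl1, a relative of trichohyalin, by -2.79 ± 0.85 on the log2 scale (edgeR adjusted p 0.23 to 0.25). The pattern went beyond the list, to 50 tested genes whose symbols begin with Krtap, a family picked after its values were seen and overlapping the list. Of these, 45 were lower at an unadjusted p below 0.05 and 17 did not overlap (against 5.67% and 2.76% of all genes).

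Without day 4 mouse 2 the members at an unadjusted p below 0.05 numbered 12 of 30, at a median of -2.67, and without day 7 mouse 4 again 30, at -4.40. Mice of a day differed widely, and day 7 mouse 4 was above day 4 mouse 4: the mean log2 CPM of the list was 5.56, 6.91, 5.35 and 2.84 on day 4 and 1.63, 2.46, -1.70 and 3.36 on day 7.

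Regulators of follicle growth were lower too, by less. Of 26 tested, 8 were lower and none higher at an unadjusted p below 0.05, with 25 of 26 below 0 and a median of -0.57. Leaving out day 4 mouse 2 left 5 lower and 1 higher. Shh, the signal by which follicle matrix cells drive growth, had 12, 166, 50 and 11 expected counts on day 4 and 1, 2, 0 and 1 on day 7, so that every day 7 library lay below the 3 counts taken as the detection floor. Sox9, a factor of follicle stem cells and also of cartilage, had 80.7, 73.9, 76.0 and 46.0 CPM on day 4 and 21.6, 31.8, 21.3 and 45.8 CPM on day 7. The lowest day 4 mouse and the highest day 7 mouse were nearly equal, and the days did not overlap. It had a log2 fold change of -1.20 ± 0.27 (edgeR adjusted p 0.17). Lef1, which turns on hair keratins under Wnt signals, was at -2.29 ± 0.69 and its upstream ligand Wnt10b at -2.28 ± 0.75 (edgeR adjusted p 0.22 and 0.25), with overlapping days for both. The days also did not overlap for Corin, a dermal papilla protease (lower), and Sostdc1, a Wnt and BMP antagonist (higher).

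Cell cycle genes were higher on day 7. All 35 members of the cell cycle and mitosis list were above 0, with a median log2 fold change of 0.97, and 26 of 35 had an unadjusted p below 0.05 with a higher value (7.32% of all genes). The count was 17 of 35 without day 4 mouse 1, at a median of 0.77. The days did not overlap for Cenpa, Ccnb2, Foxm1 and Cenpf (3.45% of all genes). The proximal upstream sequences of 3 members are shown because genes of mitosis are known to share short promoter elements, among them the CCAAT box bound by NF-Y and the cell cycle homology element TTTGAA. They are the members of smallest p with a single entry in RefSeq's promoter table (build GRCm38.p6), after a filter that dropped any member on a certain chromosome. The 150 bases before the start are printed 5′ to 3′ on the gene's strand, with CCAAT and TTTGAA in capitals on either strand. ATTGG and TTCAAA are the reverse complements, and no matches overlap. Cenpa lies at chr5:30666736-30666885 on the plus strand, Birc5 at chr11:117849087-117849236 on the plus strand and Mki67 at chr7:135716380-135716529 on the minus strand.
Cenpa: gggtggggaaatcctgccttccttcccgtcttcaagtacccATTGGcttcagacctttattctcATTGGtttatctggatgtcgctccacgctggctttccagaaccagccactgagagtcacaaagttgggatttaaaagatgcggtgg
Birc5: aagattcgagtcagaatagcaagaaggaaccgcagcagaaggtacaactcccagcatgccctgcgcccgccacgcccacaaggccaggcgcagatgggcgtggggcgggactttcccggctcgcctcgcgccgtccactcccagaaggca
Mki67: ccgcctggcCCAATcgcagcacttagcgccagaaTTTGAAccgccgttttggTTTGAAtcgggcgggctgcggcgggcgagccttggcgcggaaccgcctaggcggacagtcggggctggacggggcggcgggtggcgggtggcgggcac

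In the 150 bases shown, Cenpa holds 2 CCAAT matches, Mki67 holds 1 and Birc5 none, and Mki67 holds 2 TTTGAA matches. Over 250 upstream bases, 24 of the 29 entries that the table has for 28 of the 35 genes hold CCAAT on either strand (82.8%), against 33.8% of all 32851 entries. TTTGAA was found in 8 of the 29 entries (27.6%) and in 16% of all. The motif TTTGAA and the genes shown were chosen after the expression values were seen, and a match is not evidence of binding.

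Cenpa, the centromere-specific histone H3 variant, stood at 14.2, 28.2, 19.9 and 28.1 CPM on day 4 and at 61.7, 61.6, 53.7 and 36.5 CPM on day 7. Every day 7 mouse was above every day 4 mouse, with mouse 4 closest. This was a log2 fold change of 1.24 ± 0.26 (edgeR adjusted p 0.16). Mki67, the common marker of dividing cells, had 36.7, 54.8, 90.3 and 129 CPM on day 4 and 221, 215, 196 and 123 CPM on day 7, a difference of 1.28 ± 0.39 on the log2 scale (edgeR adjusted p 0.23). Day 7 mouse 4 fell just below day 4 mouse 4, the only overlap. Ccna2, the cyclin of S phase and G2, was at 1.20 ± 0.33, Tpx2, a spindle assembly factor, at 1.00 ± 0.30, Birc5, the survivin subunit of the chromosomal passenger complex, at 0.98 ± 0.28 and Top2a, topoisomerase II alpha, at 1.06 ± 0.35 (edgeR adjusted p 0.21 to 0.25). In each of these 4 genes day 7 mice 1 to 3 lay above all day 4 mice and mouse 4 did not. With the hair shaft score as a covariate 9 members had an unadjusted p below 0.05, and with the skeletal muscle score 16.

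**Figure D2:**
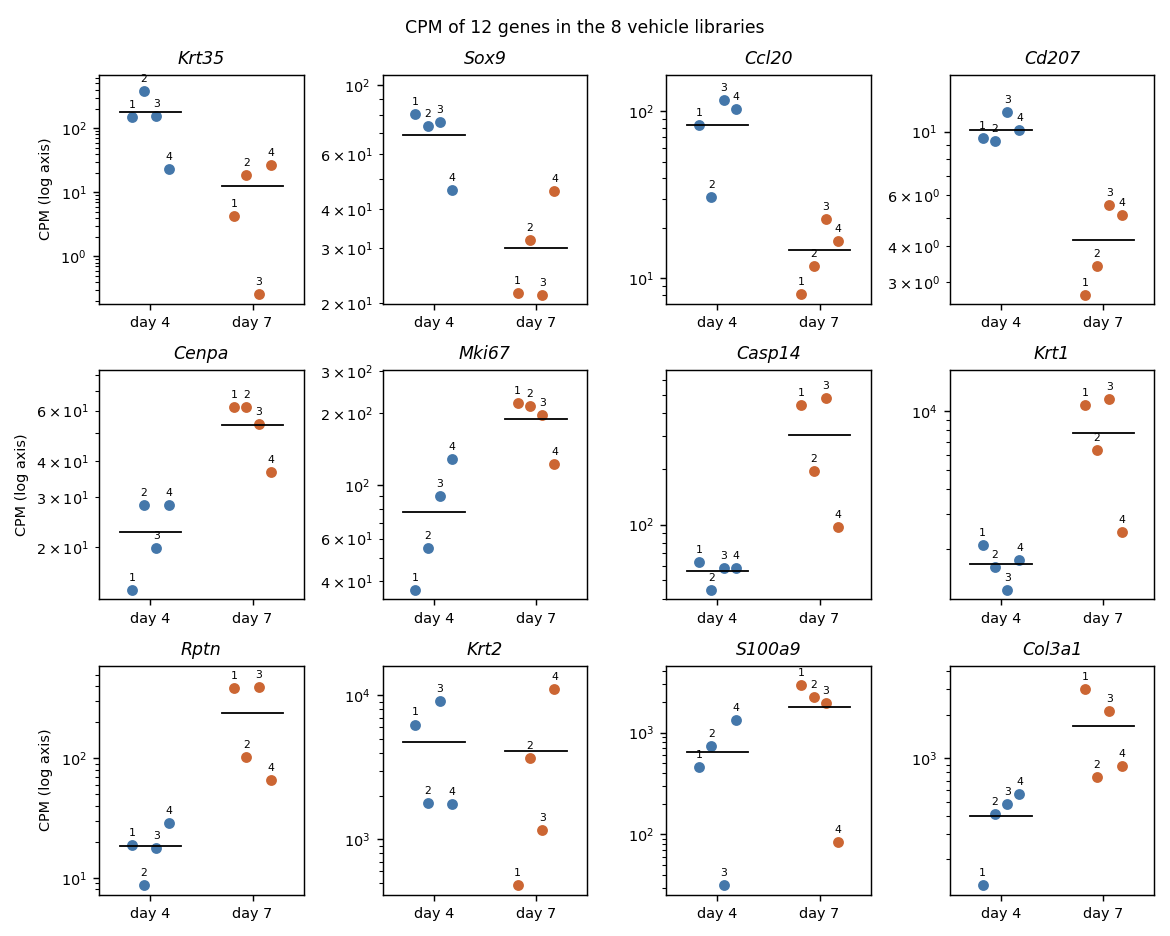
CPM of 12 genes in the 8 vehicle libraries, on a log axis in each panel; points are single mice with their number, and black lines are the means of the 4 mice of a day. Cenpa, Casp14, Krt1, Rptn and Col3a1 lie higher on day 7 without overlap and Sox9, Ccl20 and Cd207 lower without overlap, while Krt35, Mki67, Krt2 and S100a9 overlap.

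Suprabasal keratins, desmosomal cadherins and some envelope genes were higher on day 7, while loricrin overlapped between the days and no Lce1 gene had an unadjusted p below 0.05. Of 43 tested genes of terminal differentiation, 15 were higher and 1 lower at an unadjusted p below 0.05 (against 7.32% and 5.67% of all genes). The days did not overlap for 8, all higher (against 3.45% of all genes), and the median was 0.26. Leaving out 1 vehicle mouse at a time gave 10 to 16 higher, with 10 without day 4 mouse 4. Without day 7 mouse 4, 3 were lower, and without day 4 mouse 2 none. With the hair shaft score as a covariate 10 were higher and none lower. The 1 lower gene was Tchh, trichohyalin, which the follicle also makes. Krt1, the main type II keratin of the suprabasal layers, stood at 2079, 1604, 1235 and 1752 CPM on day 4 and at 10740, 6318, 11570 and 2437 CPM on day 7. All day 7 mice were higher, mice 1 and 3 by the most. This gave a log2 fold change of 2.22 ± 0.44 (edgeR adjusted p 0.16).

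Its partner Krt10 had 4965, 1722, 4442 and 2272 CPM on day 4 and 7951, 6598, 8528 and 8100 CPM on day 7. The day 7 mice were close together and above all day 4 mice, and mouse 4 was not apart here (log2 fold change 1.22 ± 0.41, edgeR adjusted p 0.25). Casp14, the protease that acts on filaggrin in cornifying cells, had 62.5, 44.6, 58.2 and 58.5 CPM against 442, 194, 482 and 96.7 CPM, a difference of 2.44 ± 0.45 on the log2 scale (edgeR adjusted p 0.16). Rptn, repetin of the cornified envelope, had 18.9, 8.74, 17.7 and 28.9 CPM against 388, 103, 393 and 66.2 CPM, a difference of 3.68 ± 0.72 on the log2 scale (edgeR adjusted p 0.16). In both genes day 7 mice 1 and 3 were highest and the days were separate. Dsc1, a desmocollin of upper layers, was at 1.54 ± 0.35 without overlap, and Ivl, involucrin, at 0.91 ± 0.25 with a small overlap (edgeR adjusted p 0.18 and 0.21).

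Genes of the upper epidermis were less uniform. Lor, loricrin, had 6884, 2558, 6563 and 1771 CPM on day 4 and 1824, 3932, 2393 and 7855 CPM on day 7. Krt2, a keratin of the upper epidermis, had 6264, 1772, 9122 and 1743 CPM on day 4 and 481, 3653, 1150 and 11000 CPM on day 7. For both genes day 7 mouse 4 was the highest day 7 library, and day 4 mice 1 and 3 the highest of day 4. Flg, filaggrin, had 797, 244, 869 and 205 CPM on day 4 and 863, 1116, 963 and 1158 CPM on day 7, all day 7 mice above 3 of the day 4 mice. All 14 tested Lce1 genes, which encode late cornified envelope proteins of normal skin, were between -0.99 and -0.07 on the log2 scale with none at an unadjusted p below 0.05. The 6 tested Lce3 genes, known from injured and psoriatic skin, were between 0.77 and 1.37, with 3 at an unadjusted p below 0.05. These 2 families were picked after their values were seen.

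Desmosomal genes made up most of the junction genes that were higher. Of 27 tested claudins, connexins and desmosomal genes, 10 were higher (against 7.32% of all genes) and none lower at an unadjusted p below 0.05. The days did not overlap for Dsg1b, Dsg1a and Dsc1, all 3 higher (against 3.45% of all genes), and the median was 0.32. Dsg1b had 102, 88.3, 101 and 124 CPM on day 4 and 460, 237, 482 and 126 CPM on day 7. Mouse 4 of day 7 exceeded the highest day 4 mouse by 2 CPM, and the other 3 by far more. The log2 fold change came to 1.65 ± 0.33 (edgeR adjusted p 0.16). Dsg1a was at 0.96 ± 0.30 and Pkp1, plakophilin 1, at 0.79 ± 0.23 (edgeR adjusted p 0.23 and 0.21). Without day 7 mouse 4, 6 members of the list were called and all were higher. Without that mouse or without day 4 mouse 4, 3 members were lower at an unadjusted p below 0.05. Higher members at that p numbered 7 without day 7 mouse 1 and 13 without day 7 mouse 4.

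Some epidermal proteases and barrier lipid enzymes were higher. Among 18 proteases and inhibitors of desquamation, Klk8, Klk9, Klk13, Serpinb12 and Tmprss13 were higher and St14, matriptase, was lower at an unadjusted p below 0.05. Without day 7 mouse 4 there were 8 higher, and without day 4 mouse 2, day 7 mouse 1 or day 7 mouse 3 none was lower. Serpinb12, a serine protease inhibitor, had 23.1, 7.41, 34.3 and 15.5 CPM on day 4 and 122, 53.2, 114 and 46.3 CPM on day 7. The days did not overlap, and the difference was 2.06 ± 0.52 on the log2 scale (edgeR adjusted p 0.19). The kallikreins Klk8 and Klk13 were at 0.92 ± 0.22 and 1.73 ± 0.50 (edgeR adjusted p 0.19 and 0.21), both with day 7 mouse 4 inside the day 4 range. Of 26 barrier lipid genes 9 were higher (against 7.32% of all genes) and none lower at an unadjusted p below 0.05, at a median of 0.28. Without day 7 mouse 3 there were 4. Sdr9c7, which oxidises acylceramides, was at 0.90 ± 0.26 and Cers3, the ceramide synthase of very long acyl chains, at 0.78 ± 0.27 (edgeR adjusted p 0.21 and 0.27).

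Keratins and small proline-rich proteins of activated epidermis were high in 3 of the 4 day 7 mice. Krt16, a keratin of hyperproliferative epidermis, had 1276, 2192, 506 and 1855 CPM on day 4 and 6352, 3896, 5828 and 680 CPM on day 7. Day 7 mice 1 to 3 were above all day 4 mice and mouse 4 was below 3 of them. Day 7 differed from day 4 by a log2 fold change of 1.52 ± 0.58 (edgeR adjusted p 0.29). Krt6a was at 1.32 ± 0.59 and Krt6b at 2.20 ± 1.00, both with adjusted p 0.37 in edgeR and the same order of mice on day 7. With Sprr1b and Serpinb3a, these 3 were the 5 of 14 wound keratinocyte genes higher at an unadjusted p below 0.05, and none was lower. The count was 1 without day 4 mouse 3, day 7 mouse 1 or day 7 mouse 3, and 2 without day 4 mouse 1.

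Of 13 small proline-rich genes, which encode precursors of the cornified envelope, 5 were higher (Sprr1b, Sprr2a2, Sprr2a3, Sprr2b and Sprr2d) and none lower at an unadjusted p below 0.05, none was free of overlap, and the median was 1.43. Sprr1b had 234, 282, 119 and 242 CPM on day 4 and 1229, 563, 1456 and 205 CPM on day 7, a difference of 1.98 ± 0.52 on the log2 scale (edgeR adjusted p 0.21). Sprr2a2 had 18.4, 69.0, 3.24 and 36.5 CPM against 728, 257, 289 and 16.5 CPM, a difference of 3.34 ± 0.94 (edgeR adjusted p 0.21). Sprr2a1, Sprr2a2 and Sprr2a3 are near-identical copies, so the split of reads among them is uncertain. In both named genes day 7 mouse 4 lay within the day 4 range. Without it, 9 of 13 had an unadjusted p below 0.05 and 2 were called. The count was 2 without day 4 mouse 1 or day 7 mouse 1, and 3 without day 4 mouse 2, day 4 mouse 3 or day 7 mouse 3.

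**Figure D3:**
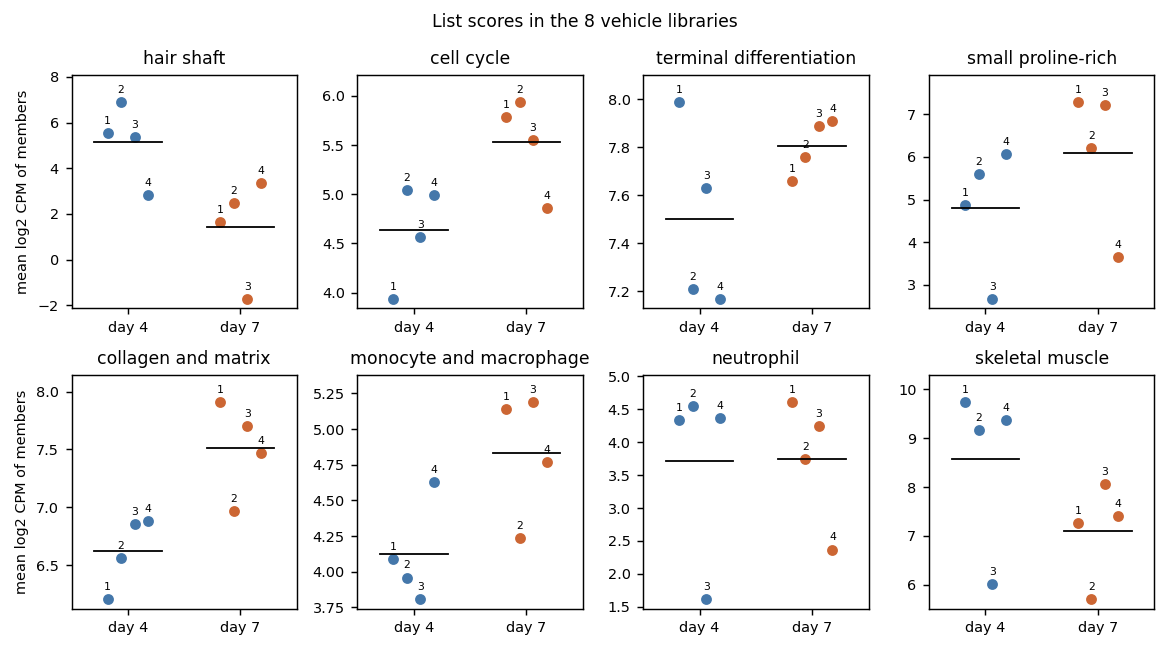
Mean log2 CPM of the tested members of 8 gene lists in the 8 vehicle libraries; points are single mice with their number, and black lines are the means of the 4 mice of a day. Day 4 mouse 3 and day 7 mouse 4 are the lowest of their day for the small proline-rich and the neutrophil lists, and all day 7 mice lie above all day 4 mice for the collagen and matrix list.

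Antimicrobial proteins followed the same mice. Of 18 tested, 5 were higher (Stfa3, Wfdc12, Reg3g, BC100530 and Sprr2d) and none lower at an unadjusted p below 0.05, at a median of 1.06. The count was 8 without day 7 mouse 4, and 3 without day 4 mouse 1 or without day 7 mouse 1, 2 or 3. S100a9, a subunit of calprotectin made by neutrophils and activated keratinocytes, had 463, 743, 31.9 and 1326 CPM on day 4 and 2903, 2245, 1962 and 84.6 CPM on day 7. Its partner S100a8 had 393, 603, 23.0 and 1033 CPM on day 4 and 1828, 1960, 1305 and 90.9 CPM on day 7. Day 7 mice 1 to 3 were above all day 4 mice in both, and day 7 mouse 4 was below all but 1 of them. Stfa3, a cysteine protease inhibitor of the stefin family, was at 2.34 ± 0.76 with overlap and Wfdc12, a whey acidic protein domain inhibitor, at 1.66 ± 0.55 without (both with adjusted p 0.25 in edgeR). For Wfdc12 day 7 mouse 4 exceeded the highest day 4 mouse by under 1 CPM.

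Cytokines of the IL-23 and IL-17 axis were mixed in direction. Of 20 tested, 3 were higher (Il22ra1, Il17rc and Ccr6) and 2 lower, Ccl20 among them, at an unadjusted p below 0.05, and the median was -0.35. There were 5 lower without day 4 mouse 3, and 1 without day 4 mouse 1 or day 7 mouse 2. Il17a, the axis's main effector, had 3, 1, 0 and 56 expected counts on day 4 and 10, 0, 16 and 1 on day 7. Il17f had 2, 28, 6 and 163 against 87, 13, 49 and 7, and Il22 had 1, 5, 0 and 70 against 45, 17, 13 and 0. In all 3 cytokines day 4 mouse 4 held most of the day 4 counts, and at these depths no difference between the days was detectable beyond that spread.

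Il23a, a subunit of IL-23, had 20, 40, 15 and 84 expected counts on day 4 and 27, 12, 16 and 6 on day 7, with overlap. Ccl20, the chemokine that attracts cells bearing Ccr6, had 83.4, 30.8, 116 and 103 CPM on day 4 and 8.07, 11.8, 22.7 and 16.8 CPM on day 7. All day 7 mice were below all day 4 mice, mouse 4 included, and the difference was -2.49 ± 0.76 on the log2 scale (edgeR adjusted p 0.23). Il22ra1, the epithelial receptor chain for IL-22, had 46.2, 28.7, 38.1 and 24.7 CPM on day 4 and 69.7, 59.8, 68.4 and 53.5 CPM on day 7. The days did not overlap here either (0.87 ± 0.24 on the log2 scale, edgeR adjusted p 0.21). Il17rc, a chain of the IL-17 receptor, was at 0.43 ± 0.15 (edgeR adjusted p 0.28).

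Within the IL-1 and IL-36 family most members were above 0, and few reached an unadjusted p below 0.05. Of 21 tested, Il1f5, Il1f6, Il1f8 and Pycard were higher and Gsdma3 lower at an unadjusted p below 0.05, with 18 of 21 above 0 and a median of 0.45. Without day 7 mouse 4 there were 7 higher. Il1f5, the IL-36 receptor antagonist, had 98.2, 50, 85.5 and 69.8 CPM on day 4 and 162, 156, 202 and 131 CPM on day 7. All day 7 mice were above all day 4 mice, at a log2 fold change of 1.10 ± 0.25 (edgeR adjusted p 0.19). Il1f6, the agonist IL-36 alpha, was at 1.15 ± 0.35 and Pycard, the inflammasome adaptor, at 0.80 ± 0.24 (edgeR adjusted p 0.23 and 0.22), both with day 7 mouse 4 inside the day 4 range. Gsdma3, a pore-forming gasdermin of skin and follicle, was at -1.75 ± 0.56 without overlap (edgeR adjusted p 0.24). Il1b varied within each day, from 2.71 to 149 CPM on day 4 and from 11.4 to 285 CPM on day 7.

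Few neutrophil markers and no member of the interferon lists reached an unadjusted p below 0.05. The neutrophil list had a median of -0.04, with 2 of 20 lower (Lrg1 and Mpo) and none higher at an unadjusted p below 0.05. Over all genes 5.67% were lower and 7.32% higher at that level. None of the 29 type I interferon response genes and none of the 23 interferon-gamma inducible GTPase and antigen processing genes had an unadjusted p below 0.05, at medians of -0.06 and 0.17. These medians moved with single mice. The neutrophil median ran from -0.39 without day 4 mouse 3 to 0.29 without day 7 mouse 4. The type I median ran from -0.51 without day 7 mouse 3 to 0.23 without day 4 mouse 4, and the interferon-gamma median from -0.06 without day 4 mouse 3 to 0.42, with 2 genes higher, without day 4 mouse 4. With the muscle score as a covariate 6 of the 23 interferon-gamma genes were higher at that level, at a median of 0.73, and the type I median was 0.44. With the hair shaft score it was -0.76, and the neutrophil median was -0.95. In limma-voom with sample quality weights the neutrophil median was 0.52. The days did not overlap for 1 of the 29 type I genes, which was lower (against 2.76% of all genes). In a fit to the 8 vehicle libraries alone, 2 type I genes were lower and 1 interferon-gamma gene was higher at an unadjusted p below 0.05. Isg15, a ubiquitin-like protein induced by interferon, had 54.4, 53.6, 34.3 and 52.8 CPM on day 4 and 35.6, 12.9, 48.2 and 3.57 CPM on day 7, with overlap. Irf7, a master regulator of type I interferon, ran from 56.4 to 166 CPM on day 4 and from 30.7 to 165 CPM on day 7. Tlr7, the receptor of imiquimod, had 1.06, 0.642, 2.08 and 3.19 CPM on day 4 and 4.74, 1.19, 6.64 and 3.91 CPM on day 7, again overlapping.

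Macrophage markers leaned higher. Of 25 tested, 8 were higher (against 7.32% of all genes) and none lower at an unadjusted p below 0.05. Of the same 25, 23 were above 0, and the median was 0.69. The days did not overlap for 4, all higher (against 3.45% of all genes), among them Ms4a7, Mrc1 and Cd68. Mrc1, the mannose receptor of tissue macrophages, had 16.2, 16.2, 41.3 and 57.0 CPM on day 4 and 85.3, 58.6, 64.7 and 84.8 CPM on day 7. Mouse 2 of day 7 was only just above the highest day 4 mouse, and the difference was 1.17 ± 0.51 on the log2 scale (edgeR adjusted p 0.35). Ms4a7, another macrophage marker, was at 1.65 ± 0.68 (edgeR adjusted p 0.32). The count of 8 fell to 2, 1 and 4 without day 4 mouse 1, 2 or 3, and to 1, 3 and 5 without day 7 mouse 1, 3 or 4. Fitted with the muscle score, 13 were higher.

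Among lymphocyte and dendritic cell genes single markers stood out. Cd4, the coreceptor of helper T cells, had 1.16, 1.14, 2.42 and 1.28 CPM on day 4 and 6.88, 2.63, 5.17 and 7.92 CPM on day 7, without overlap (1.91 ± 0.64 on the log2 scale, edgeR adjusted p 0.25). Cd5, a T cell surface protein, was at 1.19 ± 0.30 without overlap (edgeR adjusted p 0.19), and with Icos these were the 3 of 21 T and NK cell genes higher at an unadjusted p below 0.05. Cd3e, a defining T cell chain, ran from 0.918 to 2.86 CPM on day 4 and from 1.55 to 3.00 CPM on day 7, with overlap. Over the list, 18 of 21 genes were above 0, at a median of 0.27. Cd207, langerin of Langerhans cells, had 9.52, 9.24, 11.7 and 10.1 CPM on day 4 and 2.71, 3.40, 5.54 and 5.13 CPM on day 7. All day 7 mice were lower, by -1.27 ± 0.36 on the log2 scale (edgeR adjusted p 0.21), and Cd207 was the only one of 22 dendritic cell genes at an unadjusted p below 0.05. That number was 2 without day 4 mouse 2, day 4 mouse 3 or day 7 mouse 2, and 1 gene was higher without day 4 mouse 1. Among 22 CC and lymphocyte-attracting chemokines Ccl8 and Cxcl12 were higher and Ccl27a, Ccl17 and Cxcl16 lower at an unadjusted p below 0.05. None was higher without day 4 mouse 1 or day 7 mouse 1, and 1 without day 4 mouse 2 or 3. Ccl27a, a keratinocyte chemokine for skin-homing T cells, was at -1.54 ± 0.50 without overlap (edgeR adjusted p 0.24).

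Collagen and matrix genes were higher on day 7. Of 27 tested, 16 were higher (against 7.32% of all genes) and none lower at an unadjusted p below 0.05, at a median of 0.84. The days did not overlap for 11, all higher (against 3.45% of all genes). Leaving out day 4 mouse 1 gave 10 of 27, at a median of 0.69. Fbn1, fibrillin 1 of microfibrils, had 46.7, 59.1, 76.2 and 91.4 CPM on day 4 and 219, 147, 188 and 151 CPM on day 7. All day 7 mice were well above all day 4 mice, mouse 4 included. This gave a log2 fold change of 1.37 ± 0.34 (edgeR adjusted p 0.19). Col3a1, a fibrillar collagen of early repair, had 132, 409, 482 and 566 CPM on day 4 and 2992, 740, 2116 and 877 CPM on day 7, a difference of 2.08 ± 0.68 on the log2 scale (edgeR adjusted p 0.25). Here day 7 mice 1 and 3 were high and day 4 mouse 1 low.

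Loxl2 and Loxl1, which cross-link collagen and elastin, were at 1.14 ± 0.28 and 1.29 ± 0.38 without overlap (edgeR adjusted p 0.19 and 0.22). Fn1, fibronectin, was at 1.29 ± 0.34 and Col1a1 at 1.61 ± 0.70, both with day 7 mouse 2 inside the day 4 range (edgeR adjusted p 0.21 and 0.35). Of the 23 tissue repair proteases and inhibitors Mmp19, Tnc and Tgfbi were higher and Serpine2 lower at an unadjusted p below 0.05. Without day 4 mouse 4 or day 7 mouse 4 there were 5 higher. None was lower without day 4 mouse 1 or 2 or day 7 mouse 2 or 4, and 2 without day 4 mouse 3. Tnc, tenascin C of wound matrix, was at 2.00 ± 0.66 and Mmp19 at 1.44 ± 0.47 (both with adjusted p 0.25 in edgeR). With the hair shaft score as a covariate, 4 of the 27 matrix genes had an unadjusted p below 0.05, and with the muscle score 19.

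Muscle, fat and cartilage transcripts were lower on day 7 in most mice. All 30 skeletal muscle genes were below 0 with a median of -1.55, but only Myl2, Tpm2 and Myl3 had an unadjusted p below 0.05. Without day 4 mouse 3 there were 7, without day 4 mouse 1 none, and without day 4 mouse 2 or 4 or day 7 mouse 1, 2 or 4 there was 1. In a fit to the 8 vehicle libraries alone, 23 of the 30 were lower at that level. Acta1, skeletal alpha-actin, had 7163, 4587, 421 and 5233 CPM on day 4 and 1146, 478, 1792 and 1450 CPM on day 7. Day 4 mouse 3 was below all day 7 mice, at a log2 fold change of -1.84 ± 1.00 (edgeR adjusted p 0.46). Myl2, the slow and cardiac regulatory light chain, was at -3.06 ± 1.09 and Tpm2, beta-tropomyosin, at -1.34 ± 0.56 (edgeR adjusted p 0.28 and 0.33). Plin4, a lipid droplet coat protein, had 612, 473, 288 and 511 CPM on day 4 and 121, 89.9, 190 and 228 CPM on day 7, without overlap, and with Pnpla2 it was 1 of 2 adipocyte genes of 22 at an unadjusted p below 0.05. None was left without day 4 mouse 1, day 7 mouse 1 or day 7 mouse 2, and 1 without day 4 mouse 2 or day 7 mouse 3. Of 16 cartilage genes, 5 were lower and none higher at an unadjusted p below 0.05, at a median of -1.17. The count was 1 without day 4 mouse 1, day 7 mouse 1 or day 7 mouse 2 (the last with 1 higher), and 3 without day 4 mouse 4 or day 7 mouse 4. With the muscle score as a covariate 1 was lower and 1 higher, at a median of -0.27. The fit to the vehicle libraries alone gave 8 lower cartilage genes and 6 lower adipocyte genes at an unadjusted p below 0.05. How much of each tissue a piece of ear held is not in the labels, and the part of this in the other results was not tested beyond the muscle and hair covariates.

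Fatty acid oxidation genes were lower alongside muscle genes. Of 23 tested, 11 were lower (against 5.67% of all genes) and none higher at an unadjusted p below 0.05, at a median of -0.44. The count fell to 2 and 6 without day 4 mouse 1 or 2, and to 5, 3 and 7 without day 7 mouse 1, 2 or 4. With the muscle score as a covariate 5 were lower, at a median of -0.29. Slc25a20, the mitochondrial acylcarnitine carrier, had 68.1, 67.3, 57.5 and 49.3 CPM on day 4 and 36.6, 41.2, 39.6 and 47.8 CPM on day 7. The days did not overlap, and the difference was -0.55 ± 0.17 on the log2 scale (edgeR adjusted p 0.24). Decr1, an auxiliary enzyme for unsaturated fatty acids, was at -0.77 ± 0.30 without overlap, and Pdk4, a kinase that shuts off pyruvate oxidation and is strong in muscle, at -2.52 ± 0.73 with overlap (edgeR adjusted p 0.30 and 0.21). Of 20 unfolded protein and integrated stress response genes, 3 were lower (against 5.67% of all genes) and none higher at an unadjusted p below 0.05. On that list 11 genes were above 0 and 9 below, at a median of 0.08. Among the 3 were Chac1 and Ddit3, induced through the ATF4 pathway. They were at -1.96 ± 0.54 and -0.66 ± 0.17 without overlap (both with adjusted p 0.21 in edgeR).

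With the hair shaft score as a covariate, 959 genes had an unadjusted p below 0.05 between the days, against 2050 without it, and most lists had fewer. Small proline-rich and macrophage genes then had 1 higher member each, wound keratinocyte and antimicrobial genes none, barrier lipid genes 3 and junction genes 4. The follicle regulators had 2 lower and 1 higher. Fatty acid oxidation genes had 3 lower and 1 higher. The score itself was lower on day 7 in 3 of 4 mice than in any day 4 mouse, so day and follicle content are partly aligned in this fit.

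Of the genes outside the lists, those of smallest p were Ptgr1, Slc7a6 and Btg2, singled out after their values were seen. Ptgr1, a reductase that inactivates leukotriene B4, had 36.4, 39.1, 42.7 and 35.4 CPM on day 4 and 114, 69.0, 106 and 63.8 CPM on day 7, a difference of 1.20 ± 0.21 on the log2 scale. Slc7a6, a transporter of basic amino acids, was at -0.78 ± 0.14, and Btg2, an antiproliferative gene, at -1.09 ± 0.20. None of the 3 overlapped between the days, and each had an adjusted p of 0.16 in edgeR.

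In edgeR the lesion course with LPC gave more called genes, and no gene passed the test of the difference between the courses. The 2 courses share no library. In the LPC groups edgeR called 1736 genes between the days, 1084 higher (6.87%) and 652 lower (4.13%). That number fell to 518, 526 and 819 without LPC day 4 mouse 2, 3 or 1 and to 820 and 1136 without LPC day 7 mouse 2 or 4. Adding a covariate gave 889 (muscle score) or 944 (hair shaft score), the replicate block gave 901 and DESeq2 gave 3073. With limma-voom and sample quality weights the order was the other way, at 1214 for the LPC course and 2086 for the vehicle course. The test of the difference of the 2 courses called none (0%), with a lowest adjusted p of 0.058, and 2674 genes (16.9%) had an unadjusted p below 0.05, 1704 with a higher value in the LPC course (10.8%) and 970 with a lower one (6.15%). DESeq2 called 585 genes for this difference, limma-voom 10 and edgeR with the hair shaft score as a covariate 105. Leaving out day 4 mouse 3 of the vehicle group gave 214 in edgeR, against 0 with it.

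Some lists lay close together in the 2 courses and others far apart, with the same test of each gene as guide. For hair shaft genes the medians were -3.49 with vehicle and -2.68 with LPC, and 1 of 30 genes had an unadjusted p below 0.05 for the difference. Cell cycle genes had medians of 0.97 and 0.52, with none of 35 at that level, and collagen and matrix genes 0.84 and 0.91, with 2 of 27. A gene that misses this level is not shown to act alike in both.

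Terminal differentiation genes had medians of 0.26 with vehicle and -0.69 with LPC, and 27 of 43 had an unadjusted p below 0.05 for the difference (16.9% of all genes). Krt10 was at 1.22 with vehicle and at -1.71 with LPC, where it was called (edgeR adjusted p 0.021), and the difference was -2.93 ± 0.58 (edgeR adjusted p 0.11). Krt1 was at 2.22 and -0.02, a difference of -2.24 ± 0.60 (edgeR adjusted p 0.16). Btg2 was at -1.09 and 0.40, a difference of 1.48 ± 0.27 (edgeR adjusted p 0.074). Interferon-gamma inducible GTPase genes had medians of 0.17 and 2.20, with 18 of 23 at an unadjusted p below 0.05 for the difference, and 17 of the 23 were called higher in the LPC course.

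Skeletal muscle genes had medians of -1.55 with vehicle and 2.73 with LPC, and 29 of 30 had an unadjusted p below 0.05 for the difference. The muscle score was 6.01 to 9.74 in the vehicle day 4 libraries and 3.05 to 5.68 in those of LPC day 4. On day 7 it was 5.71 to 8.06 with vehicle, and 4.56, 8.43, 3.12 and 8.29 in LPC mice 1 to 4. With that score as a covariate, 1361 genes had an unadjusted p below 0.05 for the difference, against 2674 without it. The part of muscle content in the differences between the courses was not tested gene by gene.

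**Figure D4:**
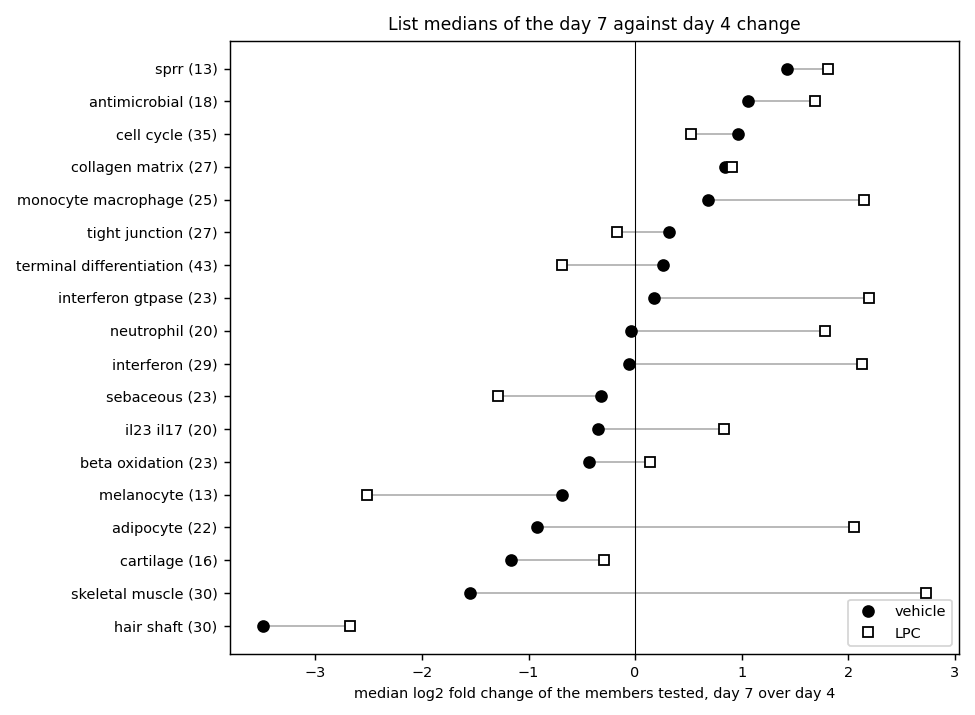
Median log2 fold change, day 7 over day 4, of the tested members (number in parentheses) of 18 gene lists, for the vehicle course (filled circles) and the LPC course (open squares). The medians lie near each other for the collagen and matrix list (0.84 and 0.91) and farthest apart for the skeletal muscle list (-1.55 and 2.73).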

How the data were processed

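RNA-seq of ear lesions gave 16 libraries, 4 mice in each of 4 groups. Days come from the sample titles, since the deposited file names carry other day numbers. Per the labels' protocols, the authors aligned reads with Bowtie2 to GRCm38 and quantified genes with RSEM, which gave the deposited expected counts (estimates that need not be whole) and FPKM values. No version is stated in the labels. A gene missing from a library was taken as 0, and expected counts were rounded.

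edgeR 4.0.16 (R 4.3.3) fitted a quasi-likelihood model with 1 mean per group to all 16 libraries (12 residual degrees of freedom, common dispersion 0.122, a coefficient of variation of 35% between mice). filterByExpr kept 15782 genes and removed 3657. Libraries were scaled by TMM, and p-values were adjusted over all genes by Benjamini-Hochberg. Mice of a group were separate animals, and each pair of vehicle libraries of the same day differed by more than sampling noise. List scores are mean log2 CPM with a prior count of 2. Alternatives were median-of-ratios factors, other filters, DESeq2 1.42.0, limma 3.58.1 (voom with sample quality weights, and log2 of FPKM plus 0.1 or 1), the 8 vehicle libraries alone, a replicate block, muscle and hair scores as covariates, and leaving out each mouse.

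Members and the 49 lists were chosen with earlier results of these data known. The text names up to 4 members of a list with the smallest p and part of a fixed panel. Other genes were named after their values were seen: Btg2, Ccnb2, Ccr6, Cd200, Cd68, Cenpf, Corin, Cxcl12, Fam57a, Foxm1, Il1f8, Krt27, Krtap4-1, Ptgr1, Rfx2, Slc7a6, Sostdc1, Sprr2a1, Sprr2d, St14, Tchh, Tmprss13 and Trp63. The rule for promoters asked for called genes, of which the edgeR test gave none, so those shown were also picked afterwards. RSEM shares reads among near-identical genes, and the labels state no strand setting, so antisense reads cannot be told apart. Some list members are not reported here by name.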

Additional observations from a re-analysis of the deposited data

Results flagged for a closer look

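In 16 of 246 groups of 4 mice examined (1 of 74 named genes or a list score, on 1 day), 1 mouse lay far from the other 3 by Dixon's criterion. Chance alone flags about 5% of groups, and 16 of 246 is not far above that. The groups share mice, and some list scores hold the named genes, so they are not independent. The values below only describe the flagged groups. Of the 16, 7 were day 4 mouse 3, 5 day 7 mouse 4, 3 day 4 mouse 4 and 1 day 7 mouse 3.

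Day 4 mouse 3 had the lowest list scores (mean log2 CPM) for neutrophil markers, at 1.62 against 4.34 to 4.55 in the other day 4 mice, and for skeletal muscle, at 6.01 against 9.16 to 9.74. Its adipocyte score was 4.49 against 5.96 to 6.16. Its hypoxia and glycolysis score was 6.59 against 7.27 to 7.38, and its oxidative phosphorylation score 7.08 against 7.78 to 7.90. Acta1, skeletal alpha-actin, was at a log2 CPM of 8.72 in that mouse against 12.16 to 12.81, and Cd4 was the only one of these 7 that was high, at 1.33 against 0.31 to 0.47.

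Day 7 mouse 4 had an antimicrobial score of 3.76 against 6.11 to 6.39 in the other day 7 mice, and a wound keratin score of 6.20 against 7.58 to 7.68. Its hypoxia and glycolysis score was 6.82 against 7.48 to 7.62, while its Schwann cell score was high, at 5.25 against 4.16 to 4.26. Pycard, the inflammasome adaptor, was at a log2 CPM of 5.47 against 6.47 to 6.55.

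Day 4 mouse 4 was low for Sox9, at a log2 CPM of 5.53 against 6.21 to 6.34, and for Cd5, at 1.24 against 1.78 to 1.89. Its Toll-like receptor score was high, at 3.60 against 2.95 to 3.06. Krt71, a root sheath keratin, was at -1.94 in day 7 mouse 3 against 4.06 to 5.18. What sets these mice apart was not tested.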

How the results depend on the processing

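These pairs cover 74 of the genes in the text, many of them picked as list members of smallest p. Of 1479 pairs of such a gene and an alternative, 1478 kept the direction of the day 7 against day 4 difference. All alternatives refit these same libraries, so agreement in direction was largely given beforehand. Lor, Krt2, S100a9 and Il17a, among others, were not included. The exception was Acta1, at 0.04 with the skeletal muscle score as a covariate, a score that itself holds Acta1. In 137 pairs, over 72 of 74 genes, the gene passed the threshold. Of these pairs, 70 were from limma-voom with sample quality weights and 36 from DESeq2. Leaving out day 7 mouse 4 gave 27, and leaving out that mouse and day 4 mouse 3 gave 4. No other alternative passed any of these genes.

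Counts of called genes moved most. For day 7 against day 4, DESeq2 called 238 genes (147 over 2-fold) and limma-voom with sample quality weights 2086 (762 over 2-fold). Leaving out 1 mouse at a time gave 0 to 205 called genes and 0 to 119 over 2-fold, with 205 only without day 7 mouse 4. Without that mouse and day 4 mouse 3 together, an alternative added after seeing the data, 4 were called, 3 of them over 2-fold. Median-of-ratios factors, both filters, both FPKM fits, the 8 vehicle libraries alone and both covariates each called 0, with lowest adjusted p-values of 0.069 to 0.20.

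For the difference between the courses, DESeq2 called 585 genes, the hair shaft covariate 105, limma-voom 10, and median-of-ratios factors and log2(FPKM + 1) 1 each. Leaving out 1 mouse at a time gave 0 to 214, with 214 without vehicle day 4 mouse 3, 3 without vehicle day 7 mouse 1 and 1 without vehicle day 7 mouse 4. Without both mice named above it was 55. The cause of these shifts was not tested.

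Mouse numbers are shared between groups, but same-numbered mice did not pair: their deviations correlated at -0.086, 0.113, -0.476 and -0.518, and no mouse correlated best with its own number. With the replicate number as a block, 0 genes were called between the days, 0 of them over 2-fold, and 0 for the difference.

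A dispersion giving a 35% coefficient of variation between mice limits what 4 mice a day can show, and low cytokine counts limit it further.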
